A study of Mus musculus with 3 samples.

Results

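Imprinted genes are genes of which only the maternal or only the paternal copy is transcribed, at least in some tissues. A set of 38 mouse genes of this kind was taken by symbol from the deposited gene counts, and each of the 38 had exactly 1 row among the 46603 genes counted. They lie in 17 imprinted clusters, of which 8 held at least 2 of the genes and 9 held 1. RNA-Seq of polyadenylated RNA was available for 3 libraries of KO-actin cells, numbered here as replicates 1 to 3. This name stands for mouse embryonic fibroblasts (MEFs) with a knockout of β-actin, the cytoplasmic actin encoded by Actb, in which β-actin with a nuclear localization signal (NLS) was expressed again, so every library carries both the knockout and the tagged protein. No treatment, strain, age, sex or time point is labelled, and the labels do not say whether the 3 libraries are separate cultures, so p-values measure only the spread between these samples, which may be technical. Wild-type and knockout cells were not analysed here, and the values therefore describe 1 condition without any contrast.

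The parental copies of an imprinted gene are told apart by DNA methylation that is laid down in the germline at imprinting control regions and then kept in the embryo through every cell division. Within a cluster one control region often sets several genes at once, commonly through a long non-coding RNA from one parental copy that accompanies the silence of its neighbours on that copy, or through the insulator protein CTCF. Many of the protein products act on fetal growth, placental transport or neuronal function. Gene counts do not separate the parental copies, so the allele given below for each gene is the one known for mouse and was not measured. In bulk RNA, fewer cells that express a gene and less RNA per cell cannot be told apart.

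The libraries held 44383636 to 49932446 counts, and no library stood far from the others in total. Levels are given as counts, as CPM, which are counts divided by the TMM-scaled size of the library, or as CPM per kilobase. The kilobases are of all annotated exons of the gene. Ratios between genes use the last measure unless stated otherwise. Thresholds, sums, shares, rankings of clusters and medians given in CPM also set genes side by side and are not adjusted for length. More than 3 counts in a library put a gene above the floor there, since a true level of up to 3 counts can give a reading of 0. This floor lay between 0.0601 and 0.0673 CPM and covers counting error only. Actb, the gene knocked out and supplied again, had 1078, 1111 and 1066 CPM, a value that does not separate tagged from native transcripts. Of 13 fibroblast markers 12 were above the floor in every library, led by Vim at 4562 ± 226 CPM (SD, n = 3), but Lum had 0 counts and Dcn, itself an imprinted gene of placenta, only 0.152 ± 0.0153 CPM (SD, n = 3). Lists of markers of other cell types had lower medians, at most 2.30 CPM (neuronal) next to 31.2 CPM for the fibroblast markers. Some of their members were not low, with means of 44.1 CPM for Krt19, 40.9 for Map2, 37.9 for Krt18 and 11.3 for Cd74. At least 10 CPM was reached by 9 of the 13 fibroblast markers, but Pdgfra had 4.97 and Thy1 0.836 CPM. The 5 epithelial markers had a summed level of 78.7 to 87.5 CPM. The 8 trophoblast markers had 1 member above the floor (Eomes), the 5 hepatocyte markers 1 (Ttr), the 4 blood markers 2 (Cd74 and Spi1), the 5 epithelial markers 2 (Krt18 and Krt19) and the 4 pluripotency markers 1 (Nanog), while all 6 neuronal markers were above it with a summed level of 57.0 to 57.5 CPM.

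Start sites were the first feature examined, because imprinting marks often lie at them. RefSeq windows of 300 bases (250 before and 50 after an annotated start, GRCm38.p6) matched 32 of the 38 genes and gave 46 windows. Each was searched on both strands for TGCCGC, the 6 letters that the zinc finger protein ZFP57 is known to bind when methylated. The letters were present in 11 of the 46 windows (23.9%), belonging to 10 genes, and in 11.6% of the 32817 windows of all genes, and 3 member windows, namely 2 overlapping windows of Mest and 1 of Nap1l5, held 2 matches; 2 or more were found in 1.53% of all windows. CpG dinucleotides had a median of 13 per member window and 7 over all windows. Such a match is a description of the letters and not a site. One window each of the gene with the most counts, Grb10, and of a pair of overlapping neighbours that differ widely in level, Copg2 and Mest, is printed here from 250 bases before to 30 bases after the start, 5′ to 3′ on the strand of the gene, with the searched letters (or their reverse complement GCGGCA) in capitals. For Grb10 and Mest the window was picked because it holds these letters. The windows are Grb10 (chr11:12037391-12037670, minus strand), Copg2 (chr6:30896765-30897044, minus strand) and Mest (chr6:30737800-30738079, plus strand).
Grb10: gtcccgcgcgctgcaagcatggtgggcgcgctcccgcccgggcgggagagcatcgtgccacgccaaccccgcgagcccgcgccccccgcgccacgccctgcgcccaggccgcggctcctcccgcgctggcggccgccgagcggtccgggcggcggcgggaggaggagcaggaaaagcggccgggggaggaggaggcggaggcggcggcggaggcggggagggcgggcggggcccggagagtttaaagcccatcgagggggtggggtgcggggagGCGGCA
Copg2: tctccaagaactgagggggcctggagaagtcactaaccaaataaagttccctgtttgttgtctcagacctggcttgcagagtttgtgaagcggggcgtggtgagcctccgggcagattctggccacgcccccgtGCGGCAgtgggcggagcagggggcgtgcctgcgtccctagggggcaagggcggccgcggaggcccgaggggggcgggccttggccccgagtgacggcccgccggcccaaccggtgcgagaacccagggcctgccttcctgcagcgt
Mest: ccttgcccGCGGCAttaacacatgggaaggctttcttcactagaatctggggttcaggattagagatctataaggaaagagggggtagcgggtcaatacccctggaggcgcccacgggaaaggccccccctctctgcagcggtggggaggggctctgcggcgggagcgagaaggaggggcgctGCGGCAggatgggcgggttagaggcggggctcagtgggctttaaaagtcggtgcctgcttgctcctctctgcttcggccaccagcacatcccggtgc
Over its full 300 bases the printed Grb10 window holds 45 CpG dinucleotides, the Copg2 window 25 and the Mest window 17. Each of the first and the last gene has a further window without the letters, with 9 CpG for Grb10 (chr11:12027922-12028221) and 8 for Mest (chr6:30733256-30733555), and Mest has another that overlaps the printed one. Grb10 and Copg2 each show 1 run of capitals, and Mest shows 2. The Copg2 window contains the annotated start of the gene in GENCODE, whereas the Grb10 window lies 1263 bases and the Mest window 14503 bases inside the outermost annotated start.

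Of the 38 genes, 25 were above the floor in all 3 libraries, 3 in some of them, 5 had no more than 3 counts in any library and 5 had 0 counts throughout. The same held for 32.6% of all genes and for 58.9% of the protein-coding ones. The 32 protein-coding members stood at 21 of 32 (65.6%), close to that background. At a mean of at least 1 CPM there were 16 of 32 coding members against 52.1% of all coding genes, and at 10 CPM there were 9 of 32 (28.1%) against 41.9%. The 6 non-coding members had 4 above the floor. The share over non-coding genes alone was not computed, the 58.9% does not apply to them and the 32.6% includes coding genes. A total of 9 genes had at least 10 CPM (Grb10, Igf2r, Cd81, Gnas, Ube3a, Impact, Copg2, Peg10 and Sgce), 10 lay between 1 and 10 CPM, and 6 were above the floor with less than 1 CPM. All 38 together took 0.0873% of the counts, or 873 CPM, and 95.9% of this came from the 9 genes at 10 CPM or more. The range ran from 263 CPM for Grb10 to no read at all.

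**Figure D1:**
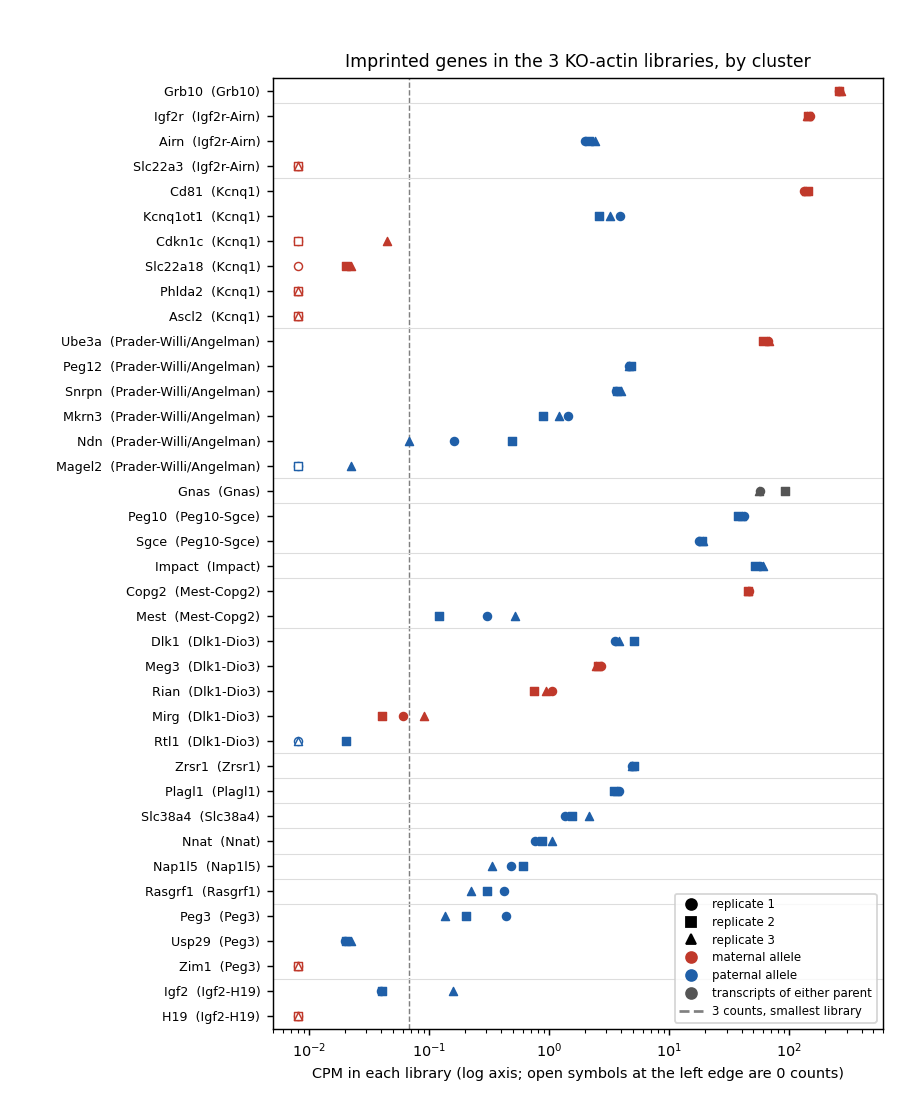
CPM of the 38 imprinted genes (rows, with the cluster in brackets, ordered by the summed level of the cluster) in replicates 1, 2 and 3 (circle, square, triangle) on a log axis, coloured by the parental allele known to be expressed; the dashed line marks 3 counts in the smallest library and open symbols at the left edge are 0 counts. Grb10 lies near 263 CPM, 5 genes have only open symbols, and replicate 2 of Gnas at 92.1 CPM stands apart from 57.1 and 55.4 CPM.

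Growth control genes were at both ends of this range. Grb10 (ENSMUSG00000020176, chromosome 11, 11930508-12038683), an adaptor that dampens insulin and IGF receptor signalling and is expressed from the maternal copy outside neurons, had 13012, 12871 and 11952 counts. That is 263 ± 4.46 CPM or 29.0 ± 0.491 CPM per kilobase (SD, n = 3), higher than 84.0% of the protein-coding genes above the floor, and it alone made up 30.1% of the summed level of the 38. Its 3 libraries lay within 1.03-fold of each other. Igf2r (chromosome 17, 12682406-12769664), the maternally expressed receptor that takes IGF2 to lysosomes, had 148, 142 and 141 CPM, a mean of 15.5 ± 0.423 CPM per kilobase (SD, n = 3). Plagl1 (chromosome 10, 13060504-13131694), a paternally expressed zinc finger transcription factor, had only 3.65 ± 0.174 CPM (SD, n = 3), with all 3 libraries between 3.46 and 3.81 CPM.
Igf2 (chromosome 7, 142650766-142666816), the paternally expressed fetal growth factor, had 2, 2 and 7 counts, so that only replicate 3 passed the floor. H19, the maternally expressed non-coding RNA that shares enhancers with Igf2, had 0 counts in every library. No ratio could be formed for this classical pair. By exons in GENCODE M21, 75.9% of the 50-base windows of Igf2 also occur in Gm49394, another gene model that has no row in the count files. Of the flanking genes, Mrpl23 had 1.35 CPM, Lsp1 3.48 CPM, Tnnt3 0, 0 and 1 counts and Nctc1 0 counts.

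The Igf2r-Airn cluster showed a high receptor beside a low antisense RNA. Airn (chromosome 17, 12741311-12860136), the paternally expressed non-coding RNA that starts in an intron of Igf2r and is needed to silence the paternal copies of the cluster, had 100, 105 and 108 counts or 2.18 ± 0.217 CPM (SD, n = 3). Per kilobase Airn stood at 0.0394 ± 0.00483 of Igf2r (SD, n = 3), with 0.0349, 0.0386 and 0.0445 in the 3 libraries. The genes are on opposite strands and their annotated exons do not overlap. Without a known strand setting, however, reads from the Igf2r intron in which Airn starts cannot be told apart from Airn. The exact sign-flip permutation test on the log2 ratio gave a two-sided p of 0.25, the smallest that 3 libraries allow, here and for each of the 8 pairs with a ratio in every library, and it is not repeated below. Slc22a3, an organic cation transporter of the cluster that is imprinted in placenta, had 0 counts in every library, and Igf2r was at least 1116-fold higher per kilobase against a floor of 3 counts per library.

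The Kcnq1 cluster on distal chromosome 7 also held a high gene beside low ones. Cd81 (143052739-143067934), a tetraspanin of the plasma membrane whose imprint is known from placenta, had 6625, 7013 and 6116 counts. Its 47.7 ± 1.61 CPM per kilobase (SD, n = 3) was the highest of the 38 in every library and exceeded 91.2% of the coding genes above the floor. Kcnq1ot1 (143203458-143296549), the paternally expressed antisense RNA of the cluster, had 193, 128 and 144 counts, or 3.87, 2.59 and 3.23 CPM. Spread over its single exon this was 0.0347 ± 0.00684 CPM per kilobase (SD, n = 3). Its host gene Kcnq1, on the opposite strand, had 0, 0 and 1 counts. The maternally expressed growth restrictors were at or near 0: Cdkn1c, an inhibitor of cyclin-dependent kinases, had 0, 0 and 2 counts, and Phlda2, a limiter of placental growth, had 0 in each library. Slc22a18, an organic cation transporter, had 0, 1 and 1 counts, and Ascl2, a trophoblast transcription factor, had 0. Pooled over libraries, Kcnq1ot1 was 5.09 times Cdkn1c per kilobase with an exact 95% counting interval of 1.40 to 42.2, an interval as wide as 2 counts make it. Without replicate 1 the ratio was 2.98, with an interval of 0.817 to 24.7 that includes equality, and without replicate 3, where both Cdkn1c counts lie, it was at least 1.17. Among the further imprinted genes of the region that are not in the set, Nap1l4 had 125 ± 3.23, Osbpl5 51.4 ± 1.303 and Tssc4 40.6 ± 1.76 CPM (SD, n = 3). Trpm5 had 11, 8 and 14 counts, Tspan32 had 2, 1 and 1, and Ins2 and Th had 0.

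In the Prader-Willi/Angelman cluster, also on chromosome 7, Ube3a held most of the reads. Ube3a (59228750-59311536), the E3 ubiquitin ligase gene that is expressed from the maternal copy alone in neurons and from both copies elsewhere, had 66.4, 60.5 and 67.4 CPM, or 3.14 ± 0.181 CPM per kilobase (SD, n = 3). Snrpn (59982495-60140219), a paternally expressed spliceosome component, had 181, 180 and 177 counts. Per kilobase Snrpn stood at 0.553 ± 0.0283 of Ube3a (SD, n = 3), below 1 in 3 of 3 libraries. Its exons share 26.2% of their 50-base windows with other gene models, of which Gm38393 had 16, 9 and 8 counts and Snurf 0, and 27.4% of those of Ube3a occur in other models, chiefly the antisense Snhg14 with 24, 29 and 34 counts, so both values are uncertain by reads that could be assigned to either gene. The intronless paternal genes of the cluster differed among themselves. Peg12, a relative of the GSK3-binding FRAT proteins, had 229, 237 and 206 counts (4.67 ± 0.113 CPM, SD, n = 3). Mkrn3, a makorin RING finger gene, had 71, 44 and 54 counts (1.17 ± 0.268 CPM, SD, n = 3). Ndn, a MAGE-family gene that restrains growth in postmitotic neurons, had 8, 24 and 3 counts, so replicate 2 was high and replicate 3 did not pass the floor. Magel2, its MAGE-family neighbour, had 0, 0 and 1 counts, and pooled Ndn was 43.9 times Magel2 per kilobase with an exact 95% counting interval of 7.38 to 1782. Replicate 2 supplied 24 of the 35 Ndn counts, and without it the ratio was 13.8 (2.004 to 594); without replicate 3 Magel2 had no count and Ndn was at least 6.69-fold higher.

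The Dlk1-Dio3 cluster on chromosome 12 was detected from both parental sides at a low level. Dlk1 (109452823-109463336), the paternally expressed Notch-like inhibitor of adipocyte differentiation, had 178, 253 and 169 counts, or 3.57, 5.12 and 3.79 CPM. Meg3 (109541001-109571726), the maternally expressed long non-coding RNA, had 135, 125 and 110 counts, or 2.57 ± 0.122 CPM (SD, n = 3). Rian, the maternal host of small nucleolar RNAs, had 53, 37 and 42 counts, and Mirg, the maternal host of a microRNA cluster farther downstream, had 3, 2 and 4. Rtl1, a paternally expressed gene derived from a retrotransposon, had 0, 1 and 0 counts. Per kilobase, Dlk1 was 5.20 ± 1.16 times Meg3 (SD, n = 3), above 1 in 3 of 3 libraries at 4.22, 6.47 and 4.91. The maternal RNAs downstream of Meg3 were lower: Rian was 0.354 ± 0.0525 of Meg3 (SD, n = 3), below 1 in each library, and pooled Meg3 was 16.6 times Mirg with an exact 95% counting interval of 8.64 to 36.5.

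Retrotransposon-derived Peg10 and its divergent neighbour Sgce on proximal chromosome 6 were both well detected. Peg10 (4747306-4760517), paternally expressed and needed for the placenta, had 2091, 1856 and 1789 counts, or 5.98 ± 0.325 CPM per kilobase (SD, n = 3). Sgce (4674350-4747207), the paternally expressed ε-sarcoglycan, had 876, 932 and 852 counts, or 1.74 ± 0.0799 CPM per kilobase (SD, n = 3). The annotated spans of the 2 genes are less than 100 bases apart and on opposite strands. Peg10 exceeded Sgce in 3 of 3 libraries, by 3.80, 3.17 and 3.34 times per kilobase, a mean of 3.44 ± 0.325 (SD, n = 3). This was the only cluster with more than 1 gene in the set in which every such gene reached 10 CPM.

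Farther along chromosome 6, Mest and Copg2 overlap at their 3′ ends and differed widely in level. Copg2 (30747554-30896794), a subunit of the vesicle coat COPI grouped here with the maternal genes although its imprint in fibroblasts was not tested, had 2285, 2243 and 2015 counts, or 45.5 ± 0.271 CPM (SD, n = 3), and its libraries lay within 1.01-fold of each other, the narrowest range of the 23 genes tested for variation. Mest (30723547-30748465), the paternally expressed hydrolase of mesoderm that is also called Peg1, had 15, 6 and 23 counts. Per kilobase Mest was 0.00894 ± 0.00568 of Copg2 (SD, n = 3), with 0.00852, 0.00347 and 0.0148 in the 3 libraries. The genes are on opposite strands and 33.0% of the 50-base windows of Mest also occur in Copg2 models. Whether counting used the strand is not given in the sources used here, so the few Mest reads cannot be told apart from reads of Copg2.

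**Figure D2:**
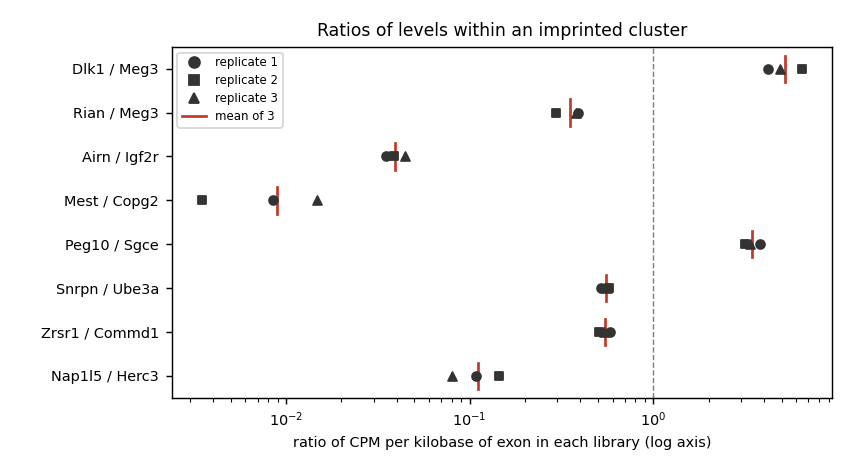
Ratio of CPM per kilobase of exon between 8 pairs of genes of the same imprinted cluster or locus (rows) in replicates 1 to 3 on a log axis, with the mean in red and equality as a dashed line. Only Dlk1 over Meg3 (mean 5.20) and Peg10 over Sgce (mean 3.44) lie above 1, and Mest over Copg2 spreads most, from 0.00347 to 0.0148.

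The Peg3 cluster at the proximal end of chromosome 7 was close to silent. Peg3, a paternally expressed zinc finger gene linked to growth and maternal behaviour, had 22, 10 and 6 counts. Usp29, a paternally expressed ubiquitin protease gene that starts beside it, had 1 count in each library, and Zim1, a maternally expressed zinc finger gene, had 0. Pooled Peg3 was 17.2 times Usp29 per kilobase with an exact 95% counting interval of 5.45 to 87.0, and at least 2.56-fold higher than Zim1 against a floor of 3 counts per library. Replicate 1 held 22 of the 38 Peg3 counts, and without it these values were 10.9 (2.55 to 97.3) and at least 1.62-fold. These 3 genes summed to 0.280 CPM, next to 0.0792 CPM for Igf2 and H19 the lowest of the 17 clusters.

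Single imprinted genes and genes that sit inside an intron of another gene completed the set. Impact (ENSMUSG00000024423), a paternally expressed regulator of the kinase GCN2, had 56.9, 52.0 and 59.8 CPM, or 11.0 ± 0.768 CPM per kilobase (SD, n = 3), the highest of the paternal genes in every library. Zrsr1 (chromosome 11, 22972005-22976496), a paternally expressed retrogene related to the splicing factor U2AF, lies in an intron of Commd1 and had 4.95 ± 0.112 CPM (SD, n = 3). It stood at 0.543 ± 0.0353 of Commd1 per kilobase (SD, n = 3), and 7.13% of its 50-base windows occur in Commd1 models on the other strand. Nap1l5 (chromosome 6, 58905233-58907076), a retrogene of the nucleosome assembly protein family in an intron of Herc3, had 24, 30 and 15 counts, 0.111 ± 0.0327 of Herc3 per kilobase (SD, n = 3). Nnat (chromosome 2, 157560078-157562522), encoding the small membrane protein neuronatin, had 38, 43 and 47 counts within Blcap, and its 0.490 ± 0.0812 CPM per kilobase (SD, n = 3) compares with 16.6 for Blcap. All 3 of these nested paternal genes were below the gene around them in level per kilobase. Slc38a4, an amino acid transporter of liver and placenta, had 67, 77 and 95 counts, and Rasgrf1, a Ras exchange factor of brain, had 21, 15 and 10.

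Gnas (chromosome 2, 174284320-174346744) had the largest chi-square value of the 23 members tested for variation between libraries, although members with fewer counts, such as Rasgrf1 (1.87-fold) and Nap1l5 (1.80-fold), had a wider ratio of the highest to the lowest library. The locus encodes the stimulatory G protein alpha subunit from both copies in most tissues, and further transcripts from its upstream promoters that are maternal (Nesp) or paternal (XLαs); gene counts add them together. It had 2851, 4552 and 2469 counts, that is 57.1, 92.1 and 55.4 CPM, so replicate 2 was high while replicates 1 and 3 lay close together. The mean was 68.2 ± 20.7 CPM (SD, n = 3), and 56.3 CPM without replicate 2. The chi-square test of variation beyond counting error, fitted across the whole table where each library had 10 counts or more and adjusted by Benjamini-Hochberg, gave an adjusted p of 6.52e-130, and without replicate 2 an adjusted p of 0.539. Of the 9214 tested genes with at least 10 CPM, only Gnas at 1.66-fold and Mapkapk5, a protein kinase gene named after its value was seen, had a ratio of the highest to the lowest library at least as large. Mapkapk5 had 8.09, 14.1 and 7.97 CPM, with replicate 2 high as well. The neighbours of Gnas did not show a step of this size, with Ctsz at 79.4, 97.1 and 89.6 CPM, Npepl1 at 35.2, 38.4 and 37.7 CPM and Stx16 at 30.4, 30.4 and 31.4 CPM. Nespas, the antisense RNA that overlaps upstream exons of Gnas, had 7, 5 and 2 counts. Which of the Gnas transcripts carried the additional reads could not be read from gene counts.

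Variation between libraries was tested for the 23 members that had 10 counts or more in each library. At an adjusted p of 0.05, 43.8% of the 13814 genes tested varied beyond counting error, and 9 of the 23 members did (39.1%), a share near the background. These were Cd81, Dlk1, Gnas, Igf2r, Impact, Kcnq1ot1, Peg10, Slc38a4 and Ube3a. Most of the differences were small: only Gnas and Slc38a4 (1.34, 1.56 and 2.13 CPM, adjusted p = 0.0247 by the same chi-square test) exceeded 1.5-fold between the highest and lowest library, 2 of 9, next to 8.68% of all varying genes. The median coefficient of variation was 5.77% for the 23 members and 5.56% for all tested genes. Dlk1 was high in replicate 2 (adjusted p = 0.00107) and Kcnq1ot1 low in it (adjusted p = 0.00653), both by the chi-square test. Without replicate 2, 2 of 24 tested members varied (8.33%) next to 12.4% of 14037 genes, Igf2r with an adjusted p of 0.0292 and Slc38a4 with 0.0335, and Dlk1 had an adjusted p of 0.769.
Replicate 2 was the farthest library in 11 of the 23 tested members and in 6 of the 9 that varied, next to 47.1% of all tested and 59.6% of all varying genes. Its deviation moved with base composition. Across the 23 members, Spearman's rho between the log2 deviation of replicate 2 and the GC content of the longest transcript was 0.47, and across 13770 tested genes it was 0.49; genes of the same libraries are not independent, and no p is given. Gnas has a GC content of 57.8%, and its log2 deviation of 0.71 compares with a median of 0.089 over the 276 genes of its GC bin. For Dlk1 the deviation was 0.48 against a median of 0.047, and for Kcnq1ot1, with a GC content of 40.3%, it was -0.45 against -0.12. Scaling within 50 bins of GC content left 7 members varying, and 29.9% of all tested genes. Gnas remained among them with an adjusted p of 4.74e-98 by the same test, whereas Ube3a (adjusted p = 0.562), Impact (0.0564) and Kcnq1ot1 (0.0526) did not pass and Sgce did (0.00383).

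**Figure D3:**
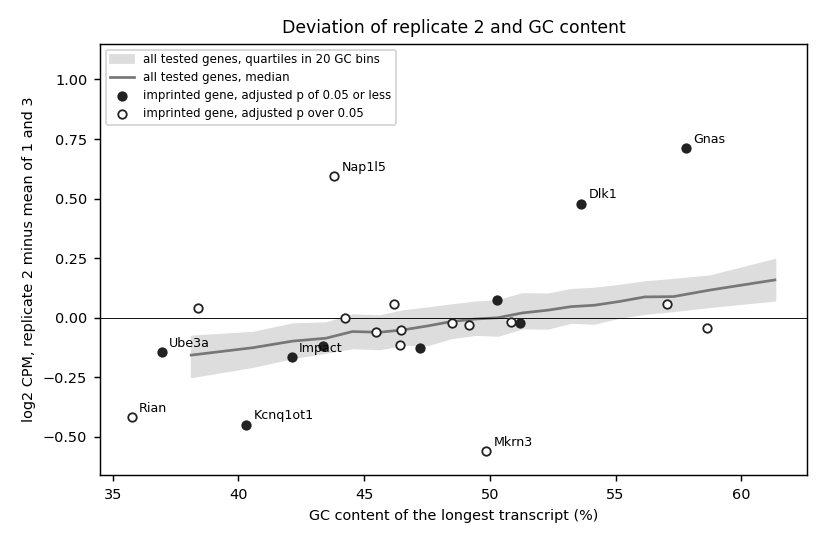
Log2 CPM of replicate 2 minus the mean of replicates 1 and 3 (y axis) against GC content of the longest transcript in percent (x axis) for the 23 tested imprinted genes, filled where the adjusted p was 0.05 or less, over the median and quartiles of all tested genes in 20 GC bins. The median of all genes rises with GC content. Of the filled genes, Gnas at 0.71 and Dlk1 at 0.48 lie far above the band and Kcnq1ot1 at -0.45 far below it, while Peg10 at -0.13 lies just below it. Genes with an adjusted p over 0.05 and few counts lie as far out, with Nap1l5 at 0.59, Mkrn3 at -0.56 and Rian at -0.42.

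By known parental allele the levels were not arranged alike. The 15 genes expressed from the maternal copy summed to 658 CPM, or 75.4% of the set, and the 22 from the paternal copy to 147 CPM, or 16.8%; Gnas, with transcripts of either kind, supplied the rest. The maternal sum came from few genes, as 5 of the 15 (Grb10, Igf2r, Cd81, Ube3a and Copg2) had at least 10 CPM and 9 had less than 1 CPM. Of the paternal genes 3 of 22 (Impact, Peg10 and Sgce) had at least 10 CPM. Detection went the other way, with 7 of 15 maternal and 17 of 22 paternal genes past the floor throughout. This floor was passed by 58.9% of all protein-coding genes and 32.6% of all genes. The groups differ in make-up, since the maternal one includes the non-coding H19, Meg3, Rian and Mirg and the paternal one Kcnq1ot1 and Airn. The median was 0.0087 CPM per kilobase for the maternal genes, that of Mirg, a level at the floor, and 0.428 for the paternal ones. Taking only the maternal genes above the floor, the median became 8.88, and that of the paternal genes above it 0.490, so this filter reverses the order of the medians. Cd81, Ascl2 and Slc22a3 are known as imprinted in placenta and Ube3a in neurons, and without these 4 genes 5 of 11 maternal genes were above the floor, with a sum of 456 CPM that still includes Copg2. Genes of a group are not replicates of it and no test was made.

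**Figure D4:**
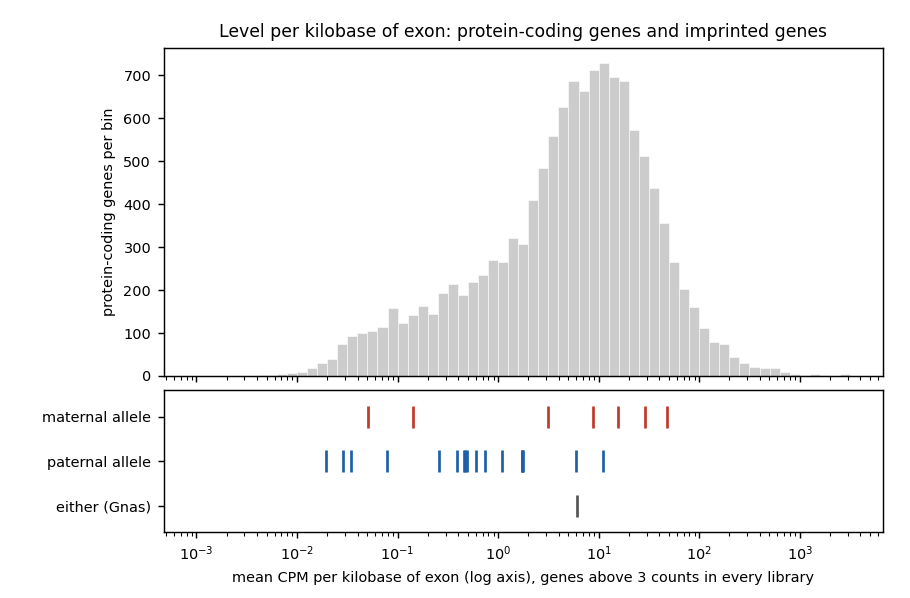
Mean CPM per kilobase of exon on a log axis for all protein-coding genes with more than 3 counts in every library (histogram, upper panel) and for the 25 imprinted genes that pass the same floor (ticks, lower panel), by known parental allele. Maternal genes leave a gap between 0.142 (Meg3) and 3.14 (Ube3a) CPM per kilobase, and paternal genes lie between 0.0195 (Peg3) and 11.0 (Impact).

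A further 41 genes known as imprinted in mouse were read in the same way, and 40 of them had a row. More than 3 counts in each library were found for 23 of these, 20 had at least 1 CPM and 17 at least 10 CPM. The same thresholds were passed by 58.9%, 52.1% and 41.9% of all protein-coding genes, though the list also holds non-coding genes such as Nespas. The most abundant in reads were Nap1l4, Qpct (74.9 ± 4.09 CPM, SD, n = 3), which encodes glutaminyl cyclase, and H13 (69.7 ± 3.63 CPM, SD, n = 3), a signal peptide peptidase. Of the 20 that could be tested, 10 varied between libraries, next to 43.8% of all tested genes. The median of the 40 was 1.03 CPM, against 36.7 CPM for 30 listed neighbours of the clusters that are not known as imprinted. Of these neighbours 27 were above the floor, 26 had at least 1 CPM and 22 at least 10 CPM. The neighbours thus passed all 3 thresholds more often than protein-coding genes as a whole. The 17 of 40 imprinted genes at 10 CPM or more lay close to the 41.9% of coding genes. Highest among these neighbours were Tcp1 (557 CPM), a chaperonin subunit beside Igf2r, and Slc38a2 (556 CPM), an amino acid transporter beside Slc38a4. These medians are of CPM and not adjusted for length.

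The genes that write, keep or remove imprints were mostly abundant in these cells. Of 23 listed, 20 passed the floor throughout, 20 had at least 1 CPM and 18 at least 10 CPM, with a median of 56.5 CPM. Of all protein-coding genes, 58.9%, 52.1% and 41.9% passed these 3 thresholds. Trim28, the corepressor recruited by ZFP57, had 390 ± 8.91 CPM (SD, n = 3). Uhrf1 (347 ± 2.36 CPM, SD, n = 3), which reads hemimethylated DNA, and Dnmt1 (326 ± 5.02 CPM, SD, n = 3), the maintenance methyltransferase, followed it. Zfp57, known above all from oocytes, early embryos and embryonic stem cells, had 38.6, 35.2 and 37.7 CPM, well above the floor in each library. The germline factors were at the floor: Dnmt3l, the cofactor that sets imprints, had 1, 0 and 0 counts, and Ctcfl and Dppa3 had 0. Of the 20 tested, 12 varied between libraries by the same chi-square test, next to 43.8% of all tested genes.

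**Figure D5:**
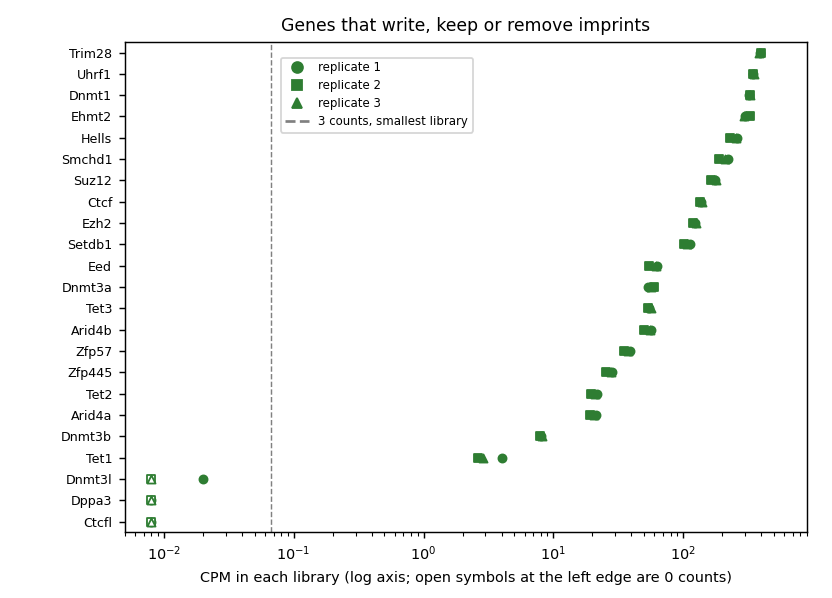
CPM in replicates 1 to 3 (circle, square, triangle) on a log axis for 23 genes that write, keep or remove imprints, ordered by mean; open symbols at the left edge are 0 counts and the dashed line marks 3 counts in the smallest library. Trim28, Uhrf1 and Dnmt1 lie above 300 CPM, and Dnmt3l, Dppa3 and Ctcfl lie left of the dashed line.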

How the data were processed

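Polyadenylated RNA from 3 KO-actin libraries was analysed. For each library the authors deposited raw, unnormalized counts per Ensembl gene. The submitters' processing notes name Trimmomatic, FastQC, HISAT2 and HTSeq and the builds mm10 and GRCm38; versions, annotation release, strand setting and the treatment of reads matching several genes are not given in the sources used here. The last 2 can move values of overlapping genes. The study's methods state DESeq2 with default settings for contrasts with knockout cells, which were not analysed here.

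Symbols were matched for 46005 of the 46603 genes, with GENCODE M21 (GRCm38) for exons and GC content and RefSeq (GRCm38.p6) for start windows. Library totals were 49932446, 49587453 and 44383636 counts, scaled by TMM (factors 1.00, 0.996 and 1.00) with edgeR 4.0.16 in R 4.3.3; DESeq2 1.42.0 size factors and total counts were alternatives. Python 3.11.15, numpy 2.4.6, pandas 2.3.3, scipy 1.17.1 and matplotlib 3.10.9 were used for the rest. Variation between libraries was tested by chi-square (2 degrees of freedom) for genes reaching 10 counts in each of them, with Benjamini-Hochberg adjustment over all of them at 0.05. On simulated counts for 13814 genes with 200 changed in replicate 2, it called 121 of these at 1.2-fold and 171 at 1.5-fold, with 9 and 10 calls among unchanged genes. These counts were drawn with counting error alone, without further spread between libraries and without a trend with GC content. They therefore do not show how the test behaves on the real libraries, which have both. Pairs were compared by exact sign-flip permutation tests, two-sided. Intervals are exact at 95% and, like the floor of 3 counts, cover counting error only.

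The members, lists, alternatives and tests were chosen with earlier results of these data known. Named were all 38 members with cluster and allele as known for mouse, preset pairs, and of other lists at most the 3 highest, the 3 lowest and any at the floor; further neighbours were named after values were seen. Other scalings, count filters, downsampling, GC bins, lengths and leaving out each library were tried.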

Additional observations from a re-analysis of the deposited data

How the results depend on the processing

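Another scaling moved none of 76 single values by more than 1 SD (at most 0.373%), and leaving out 1 library moved the mean of a tested member by at most 1.21 times. Means of members with few counts moved more: Ndn from 0.238 to 0.114 CPM without replicate 2, Igf2 from 0.0792 to 0.0403 without replicate 3 and Peg3 from 0.259 to 0.169 without replicate 1. The 9 members that varied became 10 with total counts (43.9% of all genes) or downsampling (42.0%), 12 of 29 with at least 1 count in every library (34.6%), 8 of 17 with at least 100 (51.7%) and 7 of 23 within GC bins (29.9%). Leaving out each library gave 2 to 9 members and 1737 to 4811 genes (6046 with all 3); without replicate 1 there were 4 of 23 members (32.9% of genes), without replicate 2 there were 2 of 24 (12.4%), and fewer libraries alone lower such counts. Lengths mattered most to ratios. Without division by length, Dlk1 over Meg3 was 1.63, Airn over Igf2r 0.0152, Peg10 over Sgce 2.16, Snrpn over Ube3a 0.0579, Zrsr1 over Commd1 0.411 and Nap1l5 over Herc3 0.0225. Per kilobase of the longest transcript, Rian over Meg3 was 0.642, Airn over Igf2r 0.0983, Peg10 over Sgce 1.43, Snrpn over Ube3a 0.275, Zrsr1 over Commd1 0.412 and Nap1l5 over Herc3 0.0577; no ratio crossed 1 under these choices. The maternal median was 0.0635 and the paternal 1.43 CPM without length, and the maternal one 8.88 CPM per kilobase for genes above the floor. No paired analysis was possible because all 3 libraries belong to 1 group. Depth limits the 13 genes not above the floor in every library: their absence was not shown, only a level under the floor, at most 0.0673 CPM, in the libraries with 3 counts or fewer.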
